A study of Mus musculus with 2 samples.

Results

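The genes described here are *Yap1*, *Wwtr1*, *Tead1*, *Tead2*, *Tead3*, *Tead4*, *Ctgf*, *Cyr61*, *Amotl2* and *Lats2*, which are 10 of the 31055 features counted in both libraries. They were taken by their symbols, as the Hippo pathway's coactivators YAP and TAZ (encoded by *Wwtr1*), their DNA-binding partners of the TEAD family, the target genes *Ctgf* and *Cyr61*, and the feedback regulators *Amotl2* and *Lats2*. The cells were GFP+ cells sorted from pituitaries of Sox9iresGFP/+ mice at postnatal day 3 (P3), in which GFP is made from the *Sox9* locus. Every cell had this genotype, and no group without the reporter and no treatment was compared. A cell can keep GFP after it has stopped making SOX9, which limits GFP as a mark of stem cells (SCs). 1 library was made from 3 pooled male and 1 from 3 pooled female pituitaries, so neither has a replicate. No test was therefore made, and every interval covers counting error only.

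In the Hippo pathway, MST kinases activate LATS kinases, which phosphorylate YAP and TAZ and keep them out of the nucleus. Unphosphorylated YAP and TAZ enter the nucleus, bind TEAD factors and switch on genes such as *Ctgf* and *Cyr61*, which encode secreted matricellular proteins. *Amotl2* and *Lats2* are targets as well, and their products restrain YAP and TAZ in turn.

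The coactivator genes in the mm10 annotation are *Yap1* (ENSMUSG00000053110, chr9:7931999-8004596, minus strand) and *Wwtr1* (ENSMUSG00000027803, chr3:57455649-57575910, minus). The TEAD genes are *Tead1* (ENSMUSG00000055320, chr7:112679318-112906807, plus), *Tead2* (ENSMUSG00000030796, chr7:45215753-45233644, plus), *Tead3* (ENSMUSG00000002249, chr17:28331671-28350817, minus) and *Tead4* (ENSMUSG00000030353, chr6:128224288-128300823, minus). The targets are *Ctgf* (ENSMUSG00000019997, chr10:24595442-24598683, plus), also called *Ccn2*, and *Cyr61* (ENSMUSG00000028195, chr3:145646976-145649981, minus), also called *Ccn1*. The feedback genes are *Amotl2* (ENSMUSG00000032531, chr9:102716672-102733418, plus) and *Lats2* (ENSMUSG00000021959, chr14:57689662-57758388, minus).

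Promoter windows of 300 bases, from 250 before to 50 after a transcription start, were found in RefSeq (GRCm38.p6) for 7 of the 10 genes, in 11 windows. The core of the TEAD motif, GGAATG or its reverse complement CATTCC, was present in 8 of them and in 14.7% of the 32817 windows of all genes. Overlapping windows of 1 gene share a match, so the windows are not independent. None held the AP-1 motif TGANTCA or a CArG box on either strand, which were found in 7.81% and 1.63% of all windows. A match says that the letters are there, not that a factor binds. The 250 bases before the start are shown for *Yap1*, *Wwtr1*, *Cyr61* and *Amotl2*, which have a match there and were called, by the rule given below, in at least 1 comparison of cell classes. They read 5′ to 3′ on the strand of the gene, with the TEAD core in capitals. The match begins 141 bases before the start in *Yap1* (chr9:8004597-8004846, minus strand), 136 in *Wwtr1* (chr3:57575911-57576160, minus strand), 103 in *Cyr61* (chr3:145649986-145650235, minus strand) and 65 in *Amotl2* (chr9:102717554-102717803, plus strand).
Yap1: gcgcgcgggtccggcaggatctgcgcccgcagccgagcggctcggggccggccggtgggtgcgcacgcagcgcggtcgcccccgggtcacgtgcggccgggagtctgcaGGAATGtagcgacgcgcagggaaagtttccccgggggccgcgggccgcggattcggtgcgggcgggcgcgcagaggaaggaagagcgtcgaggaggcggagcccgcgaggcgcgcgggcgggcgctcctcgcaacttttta
Wwtr1: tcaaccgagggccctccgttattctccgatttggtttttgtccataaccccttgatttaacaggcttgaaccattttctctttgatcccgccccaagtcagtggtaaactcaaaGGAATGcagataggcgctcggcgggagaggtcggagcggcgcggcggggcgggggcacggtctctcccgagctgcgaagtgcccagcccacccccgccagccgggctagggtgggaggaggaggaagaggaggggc
Cyr61: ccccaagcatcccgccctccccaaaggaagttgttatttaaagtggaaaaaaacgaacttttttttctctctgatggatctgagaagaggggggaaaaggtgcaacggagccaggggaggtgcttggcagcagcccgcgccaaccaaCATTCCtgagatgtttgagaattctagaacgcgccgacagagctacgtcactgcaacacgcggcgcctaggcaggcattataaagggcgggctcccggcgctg
Amotl2: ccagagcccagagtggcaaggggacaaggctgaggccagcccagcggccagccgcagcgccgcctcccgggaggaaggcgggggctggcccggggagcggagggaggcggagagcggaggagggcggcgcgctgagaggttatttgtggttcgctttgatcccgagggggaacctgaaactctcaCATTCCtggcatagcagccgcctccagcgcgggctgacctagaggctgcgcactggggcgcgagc

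After the filters the male and female libraries held 10410 and 5709 cells, with medians of 8902.5 and 9792 unique molecular identifiers (UMIs). Cells with fewer than 2000 UMIs, 25.4% of male and 1.65% of female cells, were put in no class. The libraries shared 19 barcodes, and no call changed when these cells were left out. Classes were set by marker UMIs, and 4363 and 3234 cells fell in one. The stem gate took cells with at least 2 *Sox2* UMIs, no *Lef1* UMI and at most 3 *Gadd45g* UMIs. Its classes were *Ednrb*-rich cells (287 and 789), *Aldh1a2*-rich cells with no *Ednrb* UMI (740 and 666) and cycling SCs (872 and 665). The non-cycling SCs compared with other cells pool the *Ednrb*-rich and *Aldh1a2*-rich classes, and gated cells in neither were left out of them. Differentiating cells (635 and 450) had at least 2 *Lef1* and at least 3 *Gadd45g* UMIs, with *Cdkn1a* and *Dll1* leading in early and *Smoc2*, *Pou3f4* and *Shh* in late cells. Endocrine cells (1274 and 362) were gonadotrophs (678 and 96), the POU1F1 lineage (438 and 195) and the POMC lineage (158 and 71). Mesenchymal cells (555 and 302) had *Dcn*, collagen genes, *Lum* or *Tcf21*.

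The markers fitted these names with limits. *Ednrb*-rich SCs were not without *Aldh1a2*, which stood at 601 and 444 CPM (counts per gene scaled to the same total of UMIs) there and at 1049.5 and 949.7 CPM in *Aldh1a2*-rich SCs. The sorted fraction is labelled as stem cells, yet *Sox2* was at 67.5 and 94.97 CPM in endocrine and 4.82 and 0.776 CPM in mesenchymal cells, against 692 and 819 CPM in SCs. In mesenchymal cells 5 pericyte markers summed to 465 and 297 CPM and 5 endothelial markers to 240.2 and 263 CPM, with none at 0, and the part of such cells in the mesenchymal levels was not tested. The 5 immune markers summed to 3.41 and 3.88 CPM there, with *Ptprc* at 0.

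Levels below are CPM of the UMIs summed over a class, with exact Poisson 95% intervals, and in each pair of values the male library comes first. Reads come from the 3′ ends of transcripts, so levels are not compared between genes. A fold has 1 CPM added to both levels, and its bounds combine the interval limits of both. Such bounds are wider than a 95% interval of the fold itself. A gene was called where the fold was at least 2 in the same direction in both libraries, among genes at 10 CPM or more in 1 of the classes compared in each library.

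**Figure D1:**
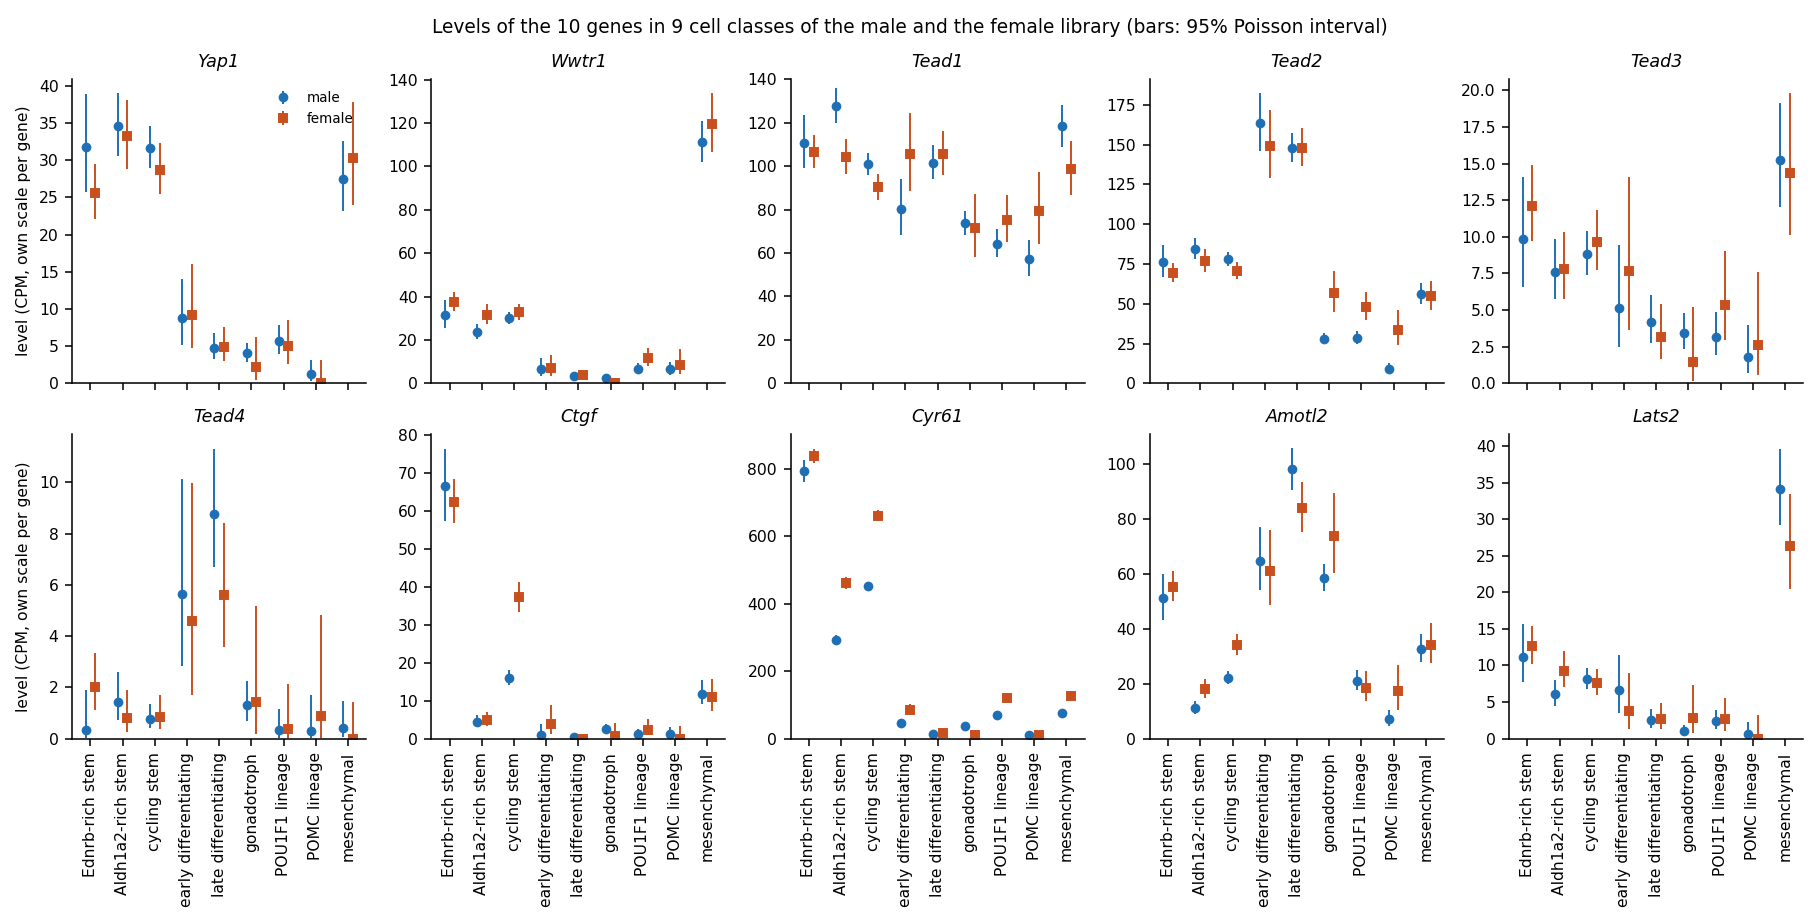
Level (y axis, CPM, with a scale of its own for each gene) of the 10 genes in cell classes (x axis) of the male and female libraries, with 95% Poisson intervals. *Yap1* and *Wwtr1* are lower in differentiating and endocrine cells than in SCs, *Tead2* and *Amotl2* are high in differentiating cells, and *Ctgf* is highest in *Ednrb*-rich SCs.

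The coactivator genes were high in SCs and low in differentiating and endocrine cells. *Yap1* stood at 31.8 (25.7 to 38.9) and 25.5 (22.04 to 29.4) CPM in *Ednrb*-rich SCs and at 34.5 (30.5 to 39.0) and 33.2 (28.8 to 38.1) CPM in *Aldh1a2*-rich SCs. Cycling SCs had 31.6 and 28.7 CPM, and the intervals of the 3 stem classes overlapped in both libraries. The *Yap1* level was 8.74 (5.09 to 14.0) and 9.17 (4.74 to 16.0) CPM in early and 4.76 (3.26 to 6.72) and 4.88 (2.98 to 7.54) CPM in late differentiating cells, again with overlapping intervals. Endocrine cells had 4.08 and 3.10 CPM, and the female POMC lineage had no *Yap1* UMI, where 3 counts would be 2.59 CPM. Mesenchymal cells, at 27.5 (23.1 to 32.5) and 30.3 (23.9 to 37.8) CPM, could not be told from the pooled non-cycling SCs by their intervals.

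*Wwtr1* differed from *Yap1* in mesenchyme. It stood at 31.5 (25.4 to 38.6) and 37.5 (33.2 to 42.2) CPM in *Ednrb*-rich SCs, at 23.6 (20.3 to 27.4) and 31.6 (27.3 to 36.3) CPM in *Aldh1a2*-rich SCs and at 30.0 and 32.7 CPM in cycling SCs. Differentiating cells had 4.41 (3.18 to 5.96) and 4.40 (2.90 to 6.40) CPM. Among endocrine cells the POU1F1 lineage had 6.77 (4.90 to 9.13) and 11.5 (7.77 to 16.4) CPM. The POMC lineage had 6.39 (3.96 to 9.77) and 8.63 (4.14 to 15.9) CPM, with intervals that overlapped those of the POU1F1 lineage. Both lineages stood above gonadotrophs, which had 2.51 (1.62 to 3.71) CPM in the male library. Female gonadotrophs had no *Wwtr1* UMI, where 3 counts would be 2.15 CPM. Mesenchymal cells had the highest *Wwtr1* level, 111 (102 to 121) and 119.6 (107 to 134) CPM.

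Shares of cells gave the same picture once each cell was thinned to 5000 UMIs. A *Wwtr1* UMI was found in 41.8% and 40.6% of mesenchymal cells, 15.7% and 16.3% of *Ednrb*-rich SCs, 10.4% and 14.6% of *Aldh1a2*-rich SCs and 1.59% and 2.01% of differentiating cells. Without thinning these shares were 57.5% and 56.6%, 27.2% and 27.9%, 21.4% and 24.8% and 5.67% and 5.56%. A *Yap1* UMI was found in 13.3% and 12.7%, 13.4% and 12.01%, 15.8% and 13.8% and 3.18% and 3.57% of the thinned cells of these classes. Most SCs therefore had no UMI of either coactivator gene at this depth.

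The TEAD genes did not share 1 pattern. *Tead1* was the most even, at 123 (116 to 129.7) and 105 (100.02 to 111) CPM in SCs, 95.8 and 104 CPM in differentiating, 118 and 98.6 CPM in mesenchymal and 67.9 (64.3 to 71.6) and 75.2 (67.9 to 83.1) CPM in endocrine cells. *Tead2* was highest in differentiating cells, at 153 (145 to 161) and 151 (142 to 161) CPM, with 164 and 149 CPM in early and 148 and 148 CPM in late ones. Its level was 82.3 (77.0 to 88.0) and 72.9 (68.4 to 77.5) CPM in SCs and 56.2 and 54.7 CPM in mesenchymal cells. In endocrine cells *Tead2* differed between the libraries, at 24.96 (22.8 to 27.3) and 47.1 (41.4 to 53.4) CPM, and was lower in the male library in gonadotrophs (27.9 and 56.6 CPM), the POU1F1 lineage (28.7 and 48.0 CPM) and the POMC lineage (8.83 and 33.6 CPM). The hormone genes *Pomc*, *Gh*, *Prl* and *Cga* took 27.6% and 14.4% of all UMIs in the POMC lineage, 1.76% and 5.07% in the POU1F1 lineage and 1.45% and 1.07% in gonadotrophs. No call changed with these genes left out of the totals.

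*Tead3* and *Tead4* were scarce. *Tead3* stood at 8.23 and 10.1 CPM in SCs, 3.99 and 4.24 CPM in differentiating and 15.3 (12.03 to 19.1) and 14.4 (10.1 to 19.8) CPM in mesenchymal cells. *Tead4* had 12 and 20 UMIs over all non-cycling SCs, or 1.14 (0.587 to 1.98) and 1.47 (0.897 to 2.27) CPM. In differentiating cells its level was 8.08 (6.38 to 10.1) and 4.89 (3.299 to 6.98) CPM, from 77 and 30 UMIs, so that the intervals of SCs and differentiating cells did not overlap in either library. *Tead4* was under the 10 CPM minimum in all comparisons, and *Tead3* passed it only against mesenchymal cells.

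The target genes separated the stem classes. *Ctgf* stood at 66.4 (57.4 to 76.3) and 62.4 (56.8 to 68.3) CPM in *Ednrb*-rich SCs, 4.34 (2.98 to 6.09) and 4.86 (3.28 to 6.94) CPM in *Aldh1a2*-rich SCs and 15.9 (14.0 to 18.0) and 37.2 (33.4 to 41.3) CPM in cycling SCs. Mesenchymal cells had 11.8 and 10.9 CPM, differentiating cells 0.525 and 0.978 CPM from 5 and 6 UMIs, and endocrine cells 1.89 and 1.36 CPM. In thinned cells, 13.4% (9.52 to 18.2) and 12.01% (9.79 to 14.5) of *Ednrb*-rich SCs had a *Ctgf* UMI, against 1.54% and 1.99% of *Aldh1a2*-rich SCs and 0.318% and 0.223% of differentiating cells. Without thinning the shares were 19.5% and 17.7%, 2.57% and 3.60% and 0.630% and 1.11%. *Ctgf* was thus found in a minority of *Ednrb*-rich SCs at this depth.

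*Cyr61* was detected in most *Ednrb*-rich SCs. Its level was 793 (761 to 826) and 839 (818 to 859.9) CPM in *Ednrb*-rich SCs, 293 (281 to 306) and 461 (444 to 478) CPM in *Aldh1a2*-rich SCs and 452 and 660.2 CPM in cycling SCs. Early differentiating cells had 46.3 (37.2 to 56.9) and 85.6 (70.5 to 103) CPM and late ones 13.1 (10.5 to 16.1) and 17.6 (13.8 to 22.1) CPM. The endocrine lineages ranged from 11.0 CPM in the male POMC lineage to 121 CPM in the female POU1F1 lineage, and mesenchymal cells had 75.3 and 126 CPM. In thinned cells a *Cyr61* UMI was found in 78.9% and 82.0% of *Ednrb*-rich SCs, 45.7% and 63.5% of *Aldh1a2*-rich SCs, 5.56% and 7.14% of differentiating and 6.37% and 9.47% of endocrine cells. The unthinned shares were 84.0% and 86.4%, 55.8% and 70.0%, 9.76% and 12.2% and 12.2% and 15.7%, at median depths of 8351 and 8484 UMIs in *Ednrb*-rich SCs and 13817 and 13024.5 UMIs in endocrine cells. Whether the low shares in differentiating and endocrine cells are expression or free RNA was not tested.

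Of the feedback regulators, *Amotl2*, which encodes a scaffold of the angiomotin family that binds YAP, was low in *Aldh1a2*-rich SCs and highest in late differentiating cells. The levels were 51.1 (43.3 to 60.0) and 55.4 (50.2 to 61.0) CPM in *Ednrb*-rich SCs, 11.2 (8.92 to 13.8) and 18.1 (14.9 to 21.8) CPM in *Aldh1a2*-rich SCs, 64.8 and 61.2 CPM in early and 98.0 (90.7 to 106) and 84.0 (75.3 to 93.3) CPM in late differentiating cells. Gonadotrophs had 58.5 (53.9 to 63.5) and 73.8 (60.2 to 89.5) CPM of *Amotl2*, above the POU1F1 lineage with 21.0 (17.5 to 24.8) and 18.4 (13.6 to 24.4) CPM and the POMC lineage with 7.002 and 17.3 CPM. In late differentiating cells and gonadotrophs *Amotl2* was thus high while *Ctgf* was at 0.298 and 0 CPM and 2.51 and 0.717 CPM.

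*Lats2*, which encodes a kinase that phosphorylates YAP and TAZ, was highest in mesenchymal cells, at 34.1 (29.2 to 39.7) and 26.4 (20.5 to 33.5) CPM. Its level was 11.2 (7.69 to 15.7) and 12.6 (10.2 to 15.5) CPM in *Ednrb*-rich SCs and 6.04 (4.42 to 8.06) and 9.23 (6.99 to 11.96) CPM in *Aldh1a2*-rich SCs, with overlapping intervals. Differentiating cells had 3.36 and 3.26 CPM and endocrine cells 1.38 and 2.13 CPM.

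Between the stem classes, *Ctgf* was 12.6-fold (8.24 to 19.4) and 10.8-fold (7.29 to 16.2) higher in *Ednrb*-rich SCs, and *Amotl2* 4.28-fold (2.99 to 6.14) and 2.95-fold (2.24 to 3.89) higher. These were the genes called, 2 of 8 past the 10 CPM minimum, where 1.21% of 8451 genes were called in this direction. None of the 8 was called in *Aldh1a2*-rich SCs, against 0.497% of genes. *Cyr61* lay just outside, at 2.70-fold (2.49 to 2.93) and 1.82-fold (1.71 to 1.93). *Yap1* was at 0.923-fold (0.668 to 1.27) and 0.776-fold (0.590 to 1.02) and *Wwtr1* at 1.32-fold (0.931 to 1.86) and 1.18-fold (0.917 to 1.53), with bounds that included 1 in both libraries. Bounds also included 1 for *Tead1* (0.869-fold and 1.02-fold), *Tead2* (0.905-fold and 0.905-fold) and *Lats2* (1.73-fold and 1.33-fold). A difference in *Yap1*, *Wwtr1*, *Tead1* or *Tead2* was not detectable at this depth. The 5 markers of pituicytes, glial cells of the posterior pituitary, summed to 58.2 and 55.9 CPM in *Ednrb*-rich and 26.9 and 34.3 CPM in *Aldh1a2*-rich SCs. Of these markers *Nkx2-1* and *Lhx2* were at 0 in *Aldh1a2*-rich SCs of both libraries, and *Nkx2-1* was at 0 in female *Ednrb*-rich SCs. The part of such cells in the *Ctgf* and *Amotl2* folds was not tested.

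**Figure D2:**
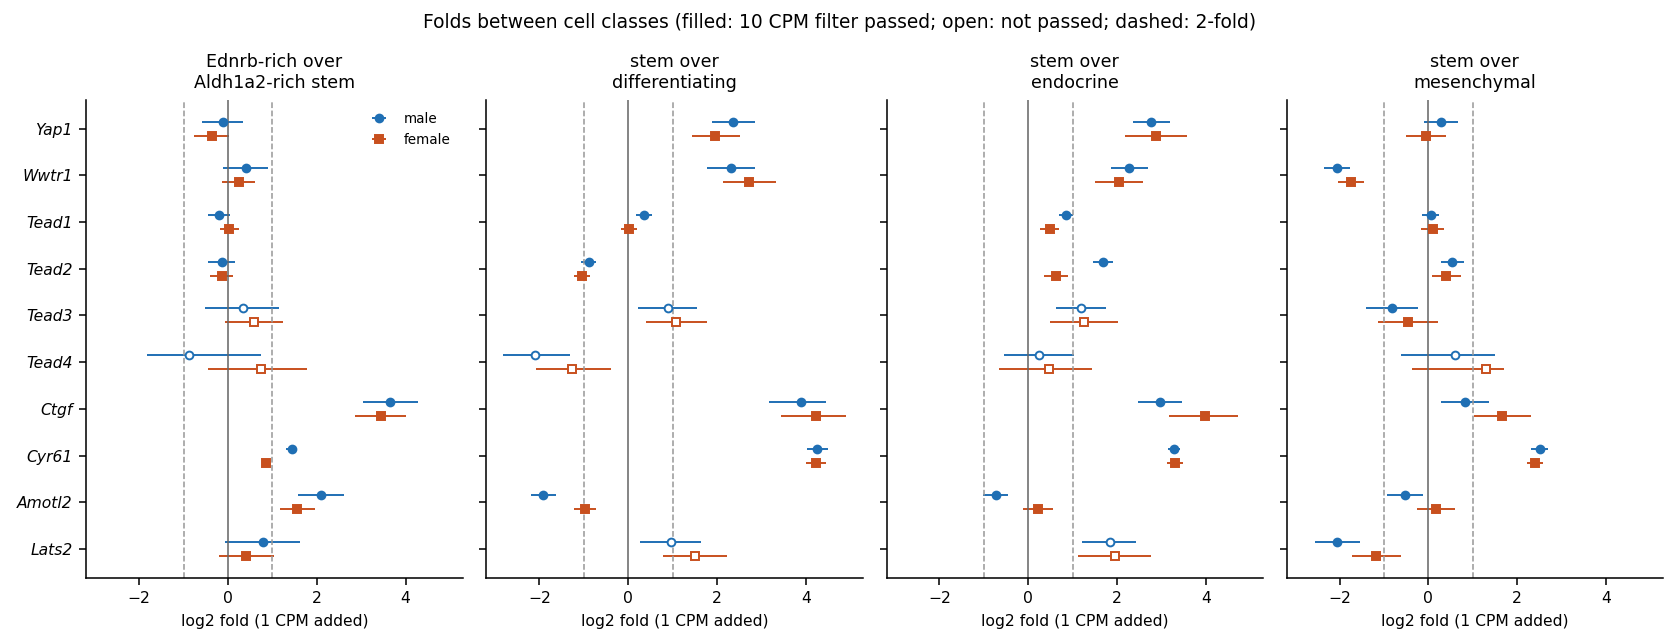
Log2 fold with 1 CPM added (x axis) of the 10 genes (y axis) in 4 comparisons of cell classes in the male and female libraries, with bounds from the Poisson limits. *Ctgf* and *Amotl2* lie beyond 2-fold between the stem classes in both libraries, and *Yap1*, *Wwtr1*, *Ctgf* and *Cyr61* lie beyond 2-fold on the SC side against differentiating and endocrine cells.

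All non-cycling cells of the stem gate, including those in neither the *Ednrb*-rich nor the *Aldh1a2*-rich class, were also ordered by their *Ednrb* UMIs after thinning to 5000 UMIs. Cells with 0, 1, 2 and 3 or more *Ednrb* UMIs numbered 1070, 213, 84 and 67 cells in the male and 1235, 450, 234 and 257 cells in the female library. *Ctgf* stood at 9.16, 45.1, 73.8 and 158 CPM in these steps in male cells and at 15.5, 42.7, 56.4 and 82.5 CPM in female cells. *Cyr61* stood at 308, 638, 902 and 1119 CPM and at 515, 690.2, 856 and 939 CPM. Both genes were higher at each further step in both libraries. *Amotl2* stood at 15.9, 46.0, 42.9 and 92.5 CPM and at 23.3, 32.4, 53.0 and 61.5 CPM. *Yap1* lay between 23.8 and 32.8 CPM in male and between 22.6 and 27.4 CPM in female cells, with overlapping intervals throughout. *Wwtr1* stood at 19.3, 30.0, 40.5 and 32.8 CPM and at 29.5, 33.3, 36.8 and 42.0 CPM. The interval of *Wwtr1* in male cells with 2 *Ednrb* UMIs, 23.6 to 64.8 CPM, lay above that in male cells with 0, 15.7 to 23.3 CPM, and those of all other pairs of steps overlapped. The summed level of 15 immediate-early genes differed along the steps too, at 17084, 20543, 21176 and 21161 CPM and at 17255, 18388, 18356 and 19312 CPM, while *Aldh1a2* was lower at each step, at 841, 692, 607 and 564 CPM and at 636, 506, 412 and 349 CPM.

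**Figure D3:**
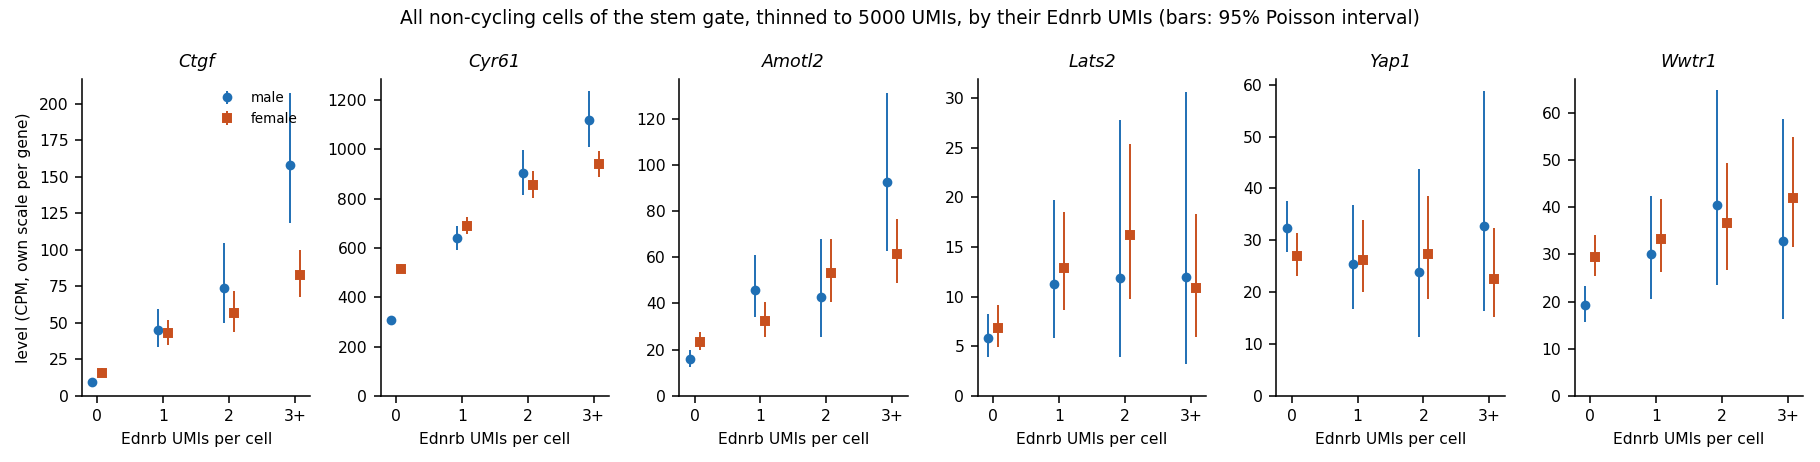
Level (y axis, CPM, with a scale of its own for each gene) in all non-cycling cells of the stem gate, in either stem class or neither, thinned to 5000 UMIs, by the number of *Ednrb* UMIs in the cell (x axis), in the male and female libraries, with 95% Poisson intervals. *Ctgf* goes from 9.16 and 15.5 CPM without *Ednrb* to 158 and 82.5 CPM at 3 or more, while the intervals of *Yap1* overlap at all steps.

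Against differentiating cells, 4 of the 7 genes past the minimum were called in the non-cycling SCs, where 11.1% of 8700 genes were called in this direction. *Cyr61* was 19.1-fold (16.3 to 22.5) and 18.8-fold (16.2 to 21.97) higher in SCs, *Ctgf* 14.9-fold (8.97 to 21.9) and 18.8-fold (10.9 to 29.9), *Wwtr1* 4.96-fold (3.43 to 7.20) and 6.63-fold (4.42 to 10.0) and *Yap1* 5.14-fold (3.69 to 7.19) and 3.91-fold (2.70 to 5.70). None was called in differentiating cells, against 4.99% of genes, but *Tead2* and *Amotl2* came close. *Tead2* was 1.84-fold (1.64 to 2.07) and 2.06-fold (1.81 to 2.34) higher in differentiating cells and *Amotl2* 3.75-fold (3.10 to 4.55) and 1.97-fold (1.65 to 2.34). *Ednrb*-rich cells made up 27.9% of male and 54.2% of female non-cycling SCs. With both stem classes given equal weight, an alternative added after the data were seen, *Amotl2* was called in differentiating cells.

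Against endocrine cells, *Yap1*, *Wwtr1*, *Ctgf* and *Cyr61* were called in SCs, 4 of 7, where 10.4% of 9048 genes were called in this direction. None was called in endocrine cells, against 8.15% of genes. *Cyr61* was 9.75-fold (8.87 to 10.7) and 9.88-fold (8.72 to 11.2) higher in SCs, *Ctgf* 7.85-fold (5.54 to 11.0) and 15.8-fold (8.999 to 26.3), *Yap1* 6.84-fold (5.16 to 9.08) and 7.32-fold (4.51 to 11.9) and *Wwtr1* 4.84-fold (3.62 to 6.47) and 4.09-fold (2.83 to 5.98). *Tead2* was at 3.21-fold (2.76 to 3.74) and 1.54-fold (1.28 to 1.85) and *Tead1* at 1.80-fold and 1.40-fold in SCs over endocrine cells. *Amotl2* was at 0.603-fold (0.495 to 0.732) and 1.16-fold (0.918 to 1.46), from 22.3 and 38.5 CPM in SCs and 37.7 and 33.1 CPM in endocrine cells. Gonadotrophs, where *Amotl2* was high, were 678 of 1274 male and 96 of 362 female endocrine cells. The SCs also pool classes with unlike *Amotl2* levels. The part of either mix in these folds was not tested. The comparisons with differentiating, endocrine and mesenchymal cells use the same SCs.

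Against mesenchymal cells, *Cyr61* was 5.69-fold (4.997 to 6.48) and 5.27-fold (4.64 to 6.02) higher in SCs, the 1 gene of 9 called in this direction, where 10.4% of 9188 genes were. *Wwtr1* was 4.18-fold (3.42 to 5.10) and 3.37-fold (2.75 to 4.11) and *Lats2* 4.15-fold (2.93 to 5.88) and 2.27-fold (1.53 to 3.32) higher in mesenchymal cells, 2 of 9, against 11.7% of genes. *Yap1* was at 1.22-fold (0.936 to 1.60) and 0.959-fold (0.702 to 1.32) and *Tead1* at 1.04-fold and 1.07-fold, with bounds that included 1. *Ctgf* was 1.76-fold (1.23 to 2.56) and 3.14-fold (2.04 to 4.94) higher in the pooled SCs, but *Aldh1a2*-rich SCs alone were below mesenchymal cells.

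Between the libraries, 0 of the 6 genes past the minimum differed by 2-fold in both stem classes, where 0.145% of 8260 genes were called higher in the male and 0.0847% higher in the female library. The 6 did not include *Ctgf*, which was under 10 CPM in *Aldh1a2*-rich SCs. In cycling SCs, which were not in this comparison, the *Ctgf* interval of the female library lay above that of the male library. In *Aldh1a2*-rich SCs *Cyr61* was 1.57-fold (1.45 to 1.70) and *Amotl2* 1.57-fold (1.08 to 2.30) higher in the female library. In *Ednrb*-rich SCs these values were 1.06-fold (0.991 to 1.13) and 1.08-fold (0.839 to 1.40), with bounds that included 1. *Tead1* was 1.22-fold (1.06 to 1.41) higher in male *Aldh1a2*-rich SCs, and *Yap1*, *Wwtr1* and *Tead2* had bounds that included 1 in both stem classes. With 1 library each, sex and library cannot be told apart.

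Immediate-early genes are switched on quickly by many stimuli, tissue dissociation among them. *Ctgf* and *Cyr61* are early-response genes too, but as members they were kept out of the list used here. The list of 15, which includes *Fos*, *Jun* and *Egr1* and no member, summed to 20573 and 18944 CPM in *Ednrb*-rich SCs, 16782 and 16704 CPM in *Aldh1a2*-rich SCs, 10637 and 13002 CPM in differentiating, 7794 and 9902 CPM in endocrine and 10143 and 10063 CPM in mesenchymal cells. All 15 passed the minimum in each comparison, and 0 were called between the stem classes, with list medians of 0.30 and 0.19 on the log2 scale. Of all genes, 1.21% were called in *Ednrb*-rich and 0.497% in *Aldh1a2*-rich SCs, with medians of 0.08 and 0.06. Called in SCs were 5 against differentiating cells, led by *Ier3* (5.84-fold and 5.13-fold) and *Klf6* (4.52-fold and 3.53-fold), and 8 against endocrine cells, led by *Klf6* (5.50-fold and 5.61-fold) and *Ier3* (4.64-fold and 4.02-fold). Against mesenchymal cells 8 were called in SCs, led by *Atf3* (51.9-fold and 51.1-fold) and *Egr2* (18.5-fold and 20.8-fold), and *Ier3* was called in mesenchymal cells (9.36-fold and 11.5-fold). The list medians in these 3 comparisons were 0.92 and 0.55, 1.36 and 1.23 and 1.31 and 1.05. Medians over all genes were −0.04 and −0.02, −0.05 and −0.05 and −0.04 and 0.02. Of all genes, 11.1%, 10.4% and 10.4% were called in SCs in these comparisons, and 11.7% were called in mesenchymal cells.

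Cells of a class were then divided at the median share of these 15 genes. *Cyr61* was higher in the cells above than in those below the median in the 4 classes divided, at 1073 against 573 CPM and 975 against 696 CPM in *Ednrb*-rich SCs, 336 against 251 CPM and 526 against 398 CPM in *Aldh1a2*-rich SCs, 559.6 against 334 CPM and 809 against 516 CPM in cycling SCs and 123 against 34.3 CPM and 220.1 against 53.0 CPM in mesenchymal cells. *Yap1* was at 0.797-fold (0.441 to 1.43) and 0.954-fold (0.642 to 1.42) in cells above over cells below the median in *Ednrb*-rich SCs. *Ctgf* differed between the libraries there, at 2.47-fold (1.64 to 3.76) and 0.953-fold (0.737 to 1.23), and was at 0.3997-fold (0.185 to 0.849) and 0.741-fold (0.256 to 2.09) in mesenchymal cells. Between the highest and lowest quartile in *Ednrb*-rich SCs, *Ctgf* was at 1.81-fold (0.939 to 3.51) and 0.744-fold (0.533 to 1.04). In cycling SCs divided at the median, *Ctgf* was at 0.828-fold (0.591 to 1.16) and 1.61-fold (1.19 to 2.17). *Amotl2* was at 1.24-fold (0.922 to 1.66) and 1.61-fold (1.18 to 2.20) there. Between the highest and lowest quartile of cycling SCs, *Amotl2* was at 2.56-fold (1.57 to 4.22) and 1.65-fold (1.05 to 2.58). *Ctgf* was at 0.820-fold (0.490 to 1.37) and 2.66-fold (1.71 to 4.17) between these quartiles. Between the cells below the median in the stem classes, *Ctgf* was 7.48-fold and 13.4-fold, *Amotl2* 4.01-fold and 2.86-fold and *Cyr61* 2.28-fold and 1.75-fold higher in *Ednrb*-rich SCs. The part of dissociation in the *Cyr61* and *Ctgf* levels was not tested.

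**Figure D4:**
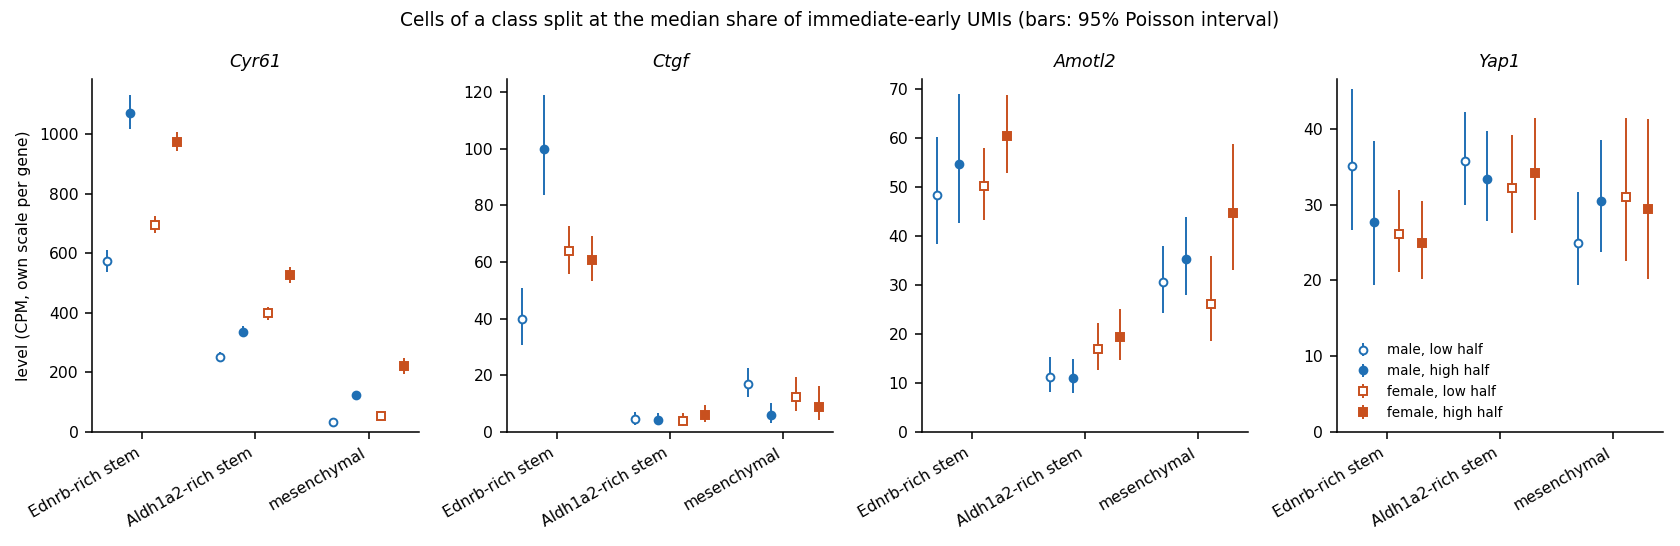
Level (y axis, CPM, with a scale of its own for each gene) in cells of a class divided at the median share of immediate-early UMIs into cells below and cells above it, in the male and female libraries, with 95% Poisson intervals. *Cyr61* is higher in the cells above the median, and *Ctgf* is higher in *Ednrb*-rich than in *Aldh1a2*-rich SCs on both sides of it.

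In single *Ednrb*-rich SCs thinned to 5000 UMIs, cells with *Ctgf* more often had *Cyr61*. A *Cyr61* UMI was found in 100% (89.997 to 100) of 35 male cells with *Ctgf* and 75.7% (69.5 to 81.1) of 226 without. In the female library it was found in 92.4% (84.9 to 96.9) of 92 and 80.6% (77.4 to 83.5) of 674 cells. *Amotl2* was found in 48.6% (31.4 to 66.0) and 19.9% (14.9 to 25.7) of these male cells, and in 29.3% (20.3 to 39.8) and 21.4% (18.3 to 24.7) of the female cells, where the intervals overlapped. For cells with and without *Yap1*, the share with *Cyr61* was 85.7% (69.7 to 95.2) and 77.9% (71.9 to 83.1) in the male and 83.7% (74.5 to 90.6) and 81.8% (78.6 to 84.6) in the female library. Cells of 1 library are not replicates.

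Of 16 Hippo kinases and scaffolds, 14 passed the minimum between the stem classes and 0 were called, with median log2 folds of 0.06 and 0.21 against 0.08 and 0.06 over all genes. Against differentiating cells the scaffold gene *Wwc2* was called in SCs (4.89-fold and 3.70-fold), 1 of 13, with list medians of −0.01 and 0.02 against −0.04 and −0.02 over all genes. Against endocrine cells *Wwc2* was called in SCs (2.18-fold and 2.17-fold) and the kinase gene *Taok3* in endocrine cells (3.296-fold and 2.75-fold), of 13, with list medians of 0.12 and 0.10 against −0.05 and −0.05. Against mesenchymal cells *Wwc1*, which encodes the scaffold KIBRA, was called in SCs (17.8-fold and 16.8-fold). *Frmd6* (7.50-fold and 5.60-fold), the atypical cadherin gene *Dchs1* (3.98-fold and 4.89-fold) and *Taok3* (3.69-fold and 2.84-fold) were called in mesenchymal cells, 3 of 16, with list medians of −0.22 and −0.32 against −0.04 and 0.02. Of all genes, 1.21% were called in *Ednrb*-rich and 0.497% in *Aldh1a2*-rich SCs. In SCs, 11.1% were called against differentiating, 10.4% against endocrine and 10.4% against mesenchymal cells. In endocrine cells 8.15% were called, and 11.7% in mesenchymal cells.

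The 13 genes whose products bind YAP, TAZ, TEADs or LATS kinases formed the next list. Against differentiating cells 5 of 9 were called in SCs and 0 the other way, where 11.1% and 4.99% of all genes were, with list medians of 1.15 and 1.46 against −0.04 and −0.02 over all genes. The leading genes were *Vgll4*, whose product competes with YAP for TEADs (3.84-fold and 3.11-fold), *Amotl1* of the angiomotin family (3.52-fold and 2.97-fold), and the LIM protein genes *Wtip* (3.25-fold and 3.11-fold) and *Ajuba* (2.86-fold and 2.76-fold). Against endocrine cells 6 of 9 were called in SCs, led by *Ajuba* (5.77-fold and 5.16-fold) and *Amotl1* (3.79-fold and 3.72-fold), and 0 the other way, where 10.4% and 8.15% of all genes were, with medians of 1.55 and 1.90 against −0.05 and −0.05 over all genes. Between the stem classes 0 of 10 were called, with medians of 0.30 and 0.54. Of all genes, 1.21% were called in *Ednrb*-rich and 0.497% in *Aldh1a2*-rich SCs, with medians of 0.08 and 0.06. Against mesenchymal cells *Amot* was called in SCs (3.999-fold and 9.45-fold) and the phosphatase gene *Ptpn14* in mesenchymal cells (2.15-fold and 2.24-fold), of 10, with medians of −0.06 and 0.06. There 10.4% and 11.7% of all genes were called in these directions, with medians of −0.04 and 0.02.

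Of 18 further YAP/TAZ target genes, which share *Ptpn14* with the list of partners, 10 passed the minimum against differentiating cells. The list medians were 0.90 and 0.75, against −0.04 and −0.02 over all genes. Of all genes, 11.1% were called in SCs and 4.99% in differentiating cells. Called in SCs were *Igfbp3* (10.4-fold and 12.98-fold), which encodes a protein that binds insulin-like growth factors, *F3*, the gene of tissue factor (6.91-fold and 9.15-fold), *Ccdc80* (8.26-fold and 7.46-fold) and *Tgfb2* (2.94-fold and 3.88-fold). The stress response gene *Gadd45a* was called in differentiating cells (2.78-fold and 2.64-fold). Against endocrine cells 6 of 10 were called in SCs, led by *Igfbp3* (10.0-fold and 9.51-fold) and *Ccdc80* (6.48-fold and 9.81-fold). *Gadd45a* was called in endocrine cells (8.26-fold and 6.39-fold). The medians were 1.41 and 1.99, against −0.05 and −0.05 over all genes, of which 10.4% and 8.15% were called in these directions. Between the stem classes 0 of 11 were called, where 1.21% and 0.497% of all genes were called in *Ednrb*-rich and *Aldh1a2*-rich SCs. The list medians were 0.69 and 0.34 there, against 0.08 and 0.06 over all genes.

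Against mesenchymal cells 8 of 15 of these target genes were called in mesenchymal cells, with list medians of −1.10 and −1.08. Of all genes, 11.7% were called in mesenchymal cells and 10.4% in SCs, with medians of −0.04 and 0.02. The targets called in mesenchymal cells included the receptor tyrosine kinase gene *Axl* (5.26-fold and 5.67-fold), *Gadd45a* (3.73-fold and 4.16-fold) and *Myof* (4.21-fold and 2.68-fold). *Foxf2*, a forkhead gene of mesenchyme, stood at 53.8 and 64.8 CPM in mesenchymal cells and had no UMI in SCs, where 3 counts would be 0.284 and 0.220 CPM. The kinase gene *Nuak2* was called in SCs (11.6-fold and 10.1-fold). Between the libraries, 0 of 13 kinases and scaffolds, 0 of 9 partners, 0 of 10 targets and 0 of 15 immediate-early genes were called. Of all genes, 0.145% were called higher in the male and 0.0847% higher in the female library.

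**Figure D5:**
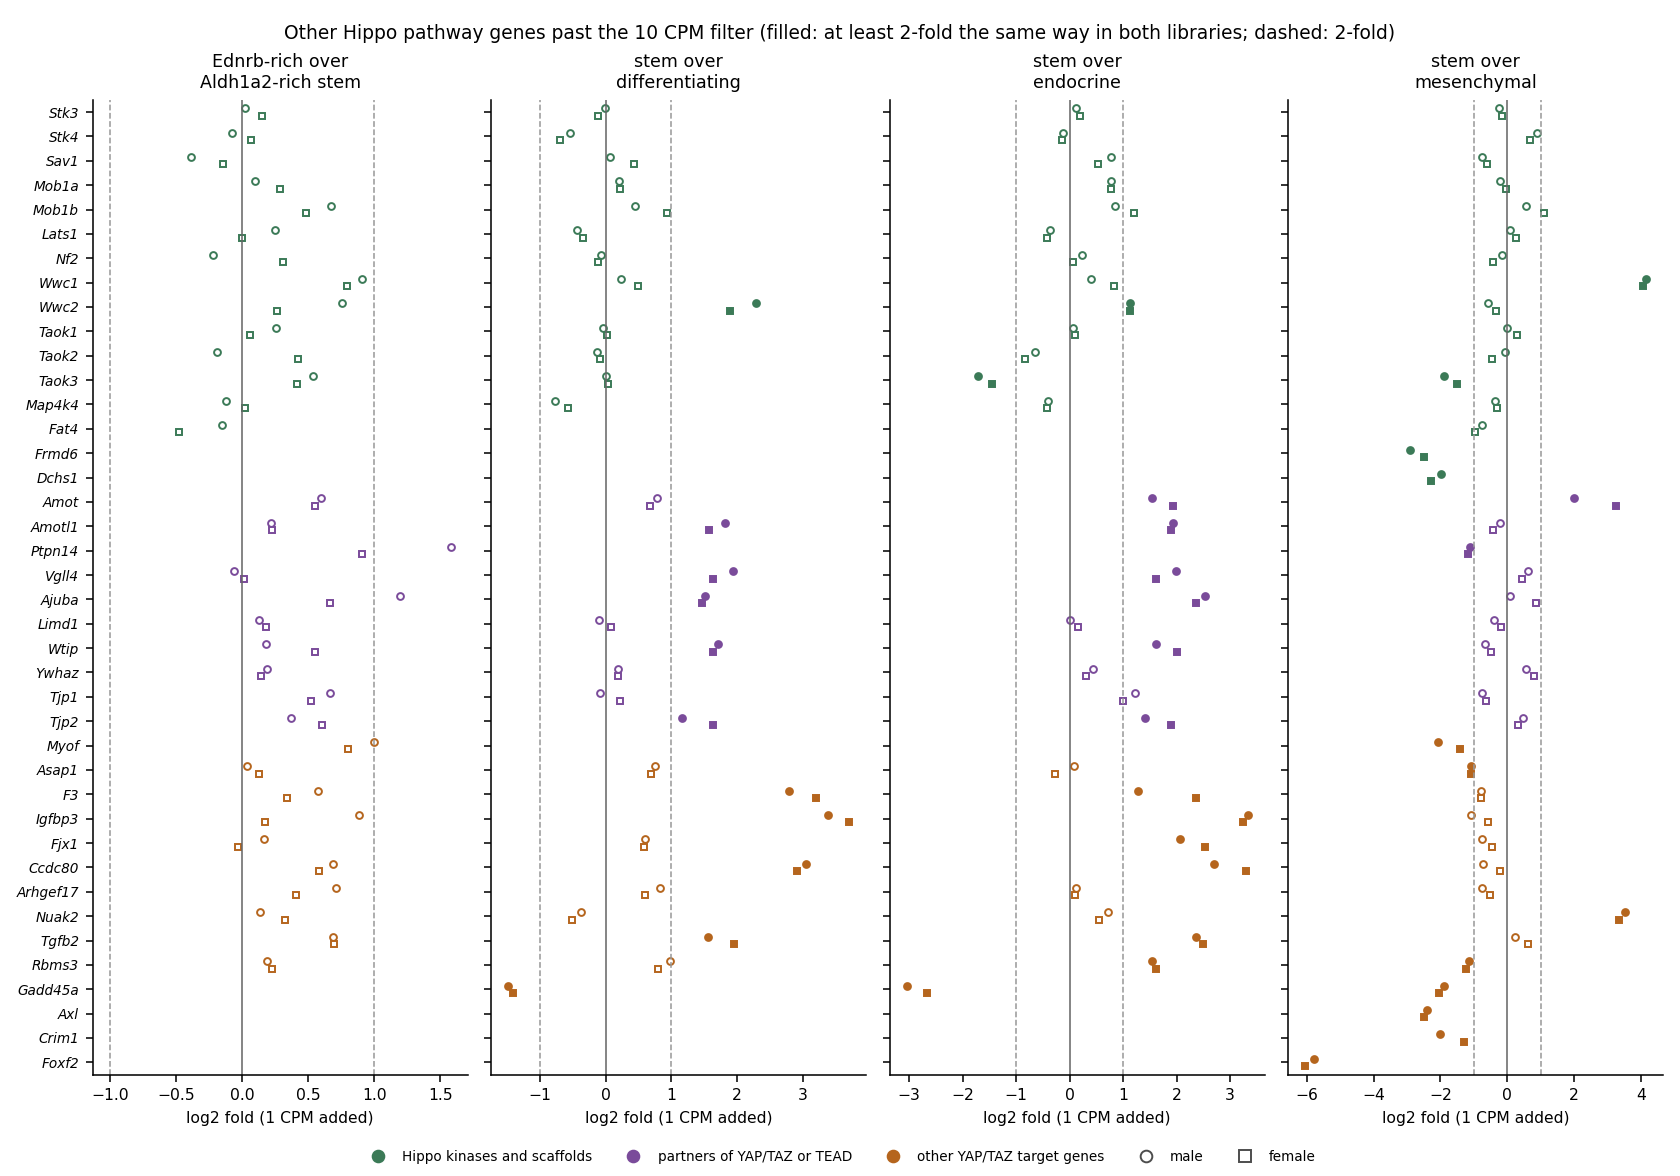
Log2 fold with 1 CPM added (x axis) of other Hippo pathway genes (y axis) past the 10 CPM minimum, in comparisons of cell classes in the male (circles) and female (squares) libraries. No gene is beyond 2-fold in both libraries between the stem classes, while the partner genes called against differentiating and endocrine cells lie on the SC side.

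Genes with patterns most like those of 4 members were found by Pearson's r of log2(CPM + 1) over 18 points, which are 9 cell classes in each library, among 8397 genes. This is a description, since points of 1 library share its depth and any genes of the same classes correlate. For *Yap1* they were *Rest*, *Adamts9*, *Efnb2*, *Kctd1* and *Tcim* (r from 0.987 to 0.978). For *Wwtr1* they were *Fkbp9*, *Rflnb*, *Rarb*, *Apoe* and *Pdgfrl* (0.971 to 0.953). For *Tead2* they were *Rpl14*, *Rps23*, *Tdrd3*, *Rpl36a* and *Rps26* (0.973 to 0.959), of which all but *Tdrd3* encode ribosomal proteins. For *Cyr61* they were *Hes1*, *Cpxm2*, *Sdc4*, *Lypd2* and *Zfp36l2* (0.981 to 0.969), with the Notch target gene *Hes1* first. *Yap1* and *Wwtr1* correlated with each other at 0.757.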

How the data were processed

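Dissociated pituitaries were sorted for GFP, and per the labels and the study's methods the authors made UMI counts per gene and cell with Cell Ranger 3.0.2 and STAR 2.5.1b on mm10 with eGFP added. The labels name 2 versions of the droplet chemistry. The deposited counts, not normalized, were used as they stand, and 0 columns of other samples were left out. Cells with fewer than 50 genes or a mitochondrial share above the mean plus 3 SD were removed, which left 105883748 male and 62828212 female UMIs. Classes were gates on raw marker UMIs. Left out were 660 male and 190 female cells that met more than 1 gate, or met 1 gate and held marker UMIs of another kind of cell. Doublets were not removed otherwise. In an alternative, the 867 male and 261 female cells with the highest Scrublet scores were left out.

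UMIs were summed per class and library and scaled to CPM with exact Poisson 95% intervals. Shares used cells thinned to 5000 UMIs, with exact Clopper-Pearson intervals. With 1 library per sex no test or p-value was made. A list is described by its counts and its median beside those of all genes. From the lists, the genes with the largest folds among those called were named. The fold calls and the intervals were tested on simulated data. Promoters came from RefSeq (GRCm38.p6). Python 3.11.15, numpy 2.4.6, scipy 1.17.1, pandas 2.3.3, scanpy 1.11.5 and matplotlib 3.10.9 were used. The members, gates and lists were chosen with earlier results of these data known.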

Additional observations from a re-analysis of the deposited data

How the results depend on the processing

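No paired analysis was possible because each sex has 1 library. The calls were recomputed without a minimum of UMIs per cell or with one of 5000, with gate minimums doubled and without the highest Scrublet scores. Other settings were cells thinned to 5000 UMIs, a mean over cells, no 10 CPM minimum, 5 CPM added and cycling cells in the stem classes. Alternatives added after seeing the data left out hormone genes or shared barcodes, weighted the stem classes equally, or used only cells below the median immediate-early share. All 63 counts stayed within 1.5 times their value. Most were of called genes (both directions added). Others were of members highest in the same class in both libraries, made only for the changed UMI minimums and gates. Another was of members that differed by immediate-early share, with the highest against the lowest quartile. It covered the *Ednrb*-rich, *Aldh1a2*-rich and mesenchymal classes and left out cycling SCs. The CPM levels themselves were not compared with their main values. Of 438 folds of members past the 10 CPM minimum, 5 changed their call. A change of direction was looked for only in folds called in the main setting, where 0 changed. Folds not called were not checked for it. *Ctgf* was called in SCs over mesenchymal cells when thinned (mean log2 fold 1.85) and with equal weights (1.52). *Lats2* was no longer called in mesenchymal cells with 5 CPM added (−1.31). *Amotl2* was called in differentiating cells with cycling cells in the stem classes (−1.46) and with equal weights (−1.24). Without the 10 CPM minimum, *Tead4* was also called in differentiating cells (5 of 10 genes called) and *Tead3* and *Lats2* in SCs over endocrine cells (6 of 10). In 1 direction, counts so changed from 1 to 2 (*Ctgf*), 2 to 1 (*Lats2*) and 0 to 1 (*Amotl2*, *Tead4*). The cause was not tested. Depth limits levels under 10 CPM, which include *Tead4* in the comparisons made.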
